A study of Mus musculus with 4 samples.

Results

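The 10 genes described here encode proteins of the muscle Z-disc and of the PDZ-LIM family: Pdlim1, Pdlim2, Pdlim3, Pdlim4, Pdlim5, Pdlim7, Ldb3, Actn2, Actn3 and Csrp3. They were taken by symbol, with every probe set that the array annotation assigns to exactly 1 of them, which gave 22 probe sets for 10 of the 18193 named genes on the array. The genes were chosen by their signals in this same comparison, with earlier results of these data known, so the differences and calls below describe them and are not independent support for any pattern among them. RNA came from the mouse myoblast line C2C12, which can fuse into multinucleated fibres in culture. Knockdown and control cells alike had a pLKO.1 lentiviral vector stably integrated and were held in puromycin in serum-rich medium. The 2 knockdown cultures expressed an shRNA against Sfmbt1, which encodes a chromatin protein with MBT repeats, and the 2 control cultures a control shRNA, which the labels call scrambled in one field and name for luciferase in another. Each culture was measured on 1 Affymetrix array. The labels name a single knockdown hairpin, so effects of lower Sfmbt1 and other effects of that hairpin cannot be told apart, and they leave unsaid whether both cultures of each kind derive from separate infections. The p-values measure only the spread between these arrays, part of which may be technical.

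The Z-disc is the protein lattice at the border of each sarcomere, where alpha-actinin crosslinks the actin filaments of neighbouring sarcomeres. PDZ-LIM proteins bind alpha-actinin, several of them through the PDZ domain, and hold other proteins, among them kinases, through zinc-binding LIM domains. The ALP group (Pdlim1 to Pdlim4) has a lone LIM domain, and the Enigma group (Pdlim5, Pdlim7 and Ldb3) has several in its long forms. Ldb3 and Pdlim5 are also known to make short forms without LIM domains by alternative splicing. Actn2 and Actn3 encode the muscle alpha-actinins, and Csrp3 encodes the muscle LIM protein MLP.

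The targeted gene had lower signals in both knockdown arrays than in both control arrays in all 5 of its probe sets, 1 of which (1443853) was in the background range on every array. The brightest, 1429749, which stands for the gene in the test described below, stood at 67.7% of the control (log2 -0.54, limma adjusted p = 0.316), so Sfmbt1 was not called, and 1455412 stood at 69.2% (adjusted p = 0.339). Under 15 alternative settings the log2 difference for Sfmbt1 lay between -1.12 and -0.26, and the gene was called lower in at least 1 of them. Over all probe sets 1422894 was called lower, at 74.6 and 16 in the knockdown, against 241.7 and 277.9 in the control (adjusted p = 0.0219). That is 17.4% of the control, with the signal of 16 in the background range. In Sfmbt1 probe set 1422893 the signal was 89.2 and 139.0 in the knockdown, against 230.3 and 291.5 in the control (43.7%, adjusted p = 0.0594). Background, taken as the 95th percentile over 27 control probe sets for bacterial transcripts, stood at 69.3 and 42.9 on the knockdown arrays and 49.1 and 53.2 on the control arrays. All 8 myoblast markers, with Myod1, Des and Cdh15 among them, lay above background on all 4 arrays. Signals of different probe sets depend on their own probes, so levels are compared only within a probe set. In bulk RNA, fewer cells of a type and less RNA per cell cannot be told apart.

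Among the 10 genes, Pdlim3 rose in the knockdown, to 2.62 times the control signal, and it was the only one called in the test over all genes. Pdlim2 and the brightest probe set of Pdlim5 stood at 74.0% and 71.6% of the control and missed the threshold. Pdlim1, Pdlim4 and Pdlim7 had overlapping groups in their brightest probe sets. In Ldb3, 2 probe sets were brighter in the knockdown and the third was dimmer, and none of them passed. Actn2 was in the background range on every array.

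A gene was tested through its brightest probe set where that lay in the upper 60% of signals, which kept 9 of the 10 genes and left out Actn2. The test was limma on log2(signal + 16), and a gene was called where the Benjamini-Hochberg adjusted p over 12866 genes was under 0.05. Of the 9 tested genes 1 was called higher and 0 lower, where 1.44% of all tested genes were called higher and 1.61% lower. At an unadjusted p under 0.05, limma gave 1 of the 9 higher and 2 lower, where 7.89% of all tested genes were higher and 7.14% lower. The median log2 difference, knockdown minus control, was 0.07 over the 9 genes and 0.015 over all 12866, and 5 of the 9 were above 0, as were 52.2% of all tested genes. In a second fit over all 22893 probe sets that passed the filter, 20 of the 22 probe sets of these genes entered, and 1 was called higher and 1 lower, against 0.961% and 1.43% of all probe sets. Over the 20 tested probe sets, both knockdown arrays lay above both control arrays in 7 and below them in 9, where the shares over all tested probe sets were 21.6% and 24%. Of the 16, 7 belong to Pdlim5 and 3 to Ldb3.

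**Figure D1:**
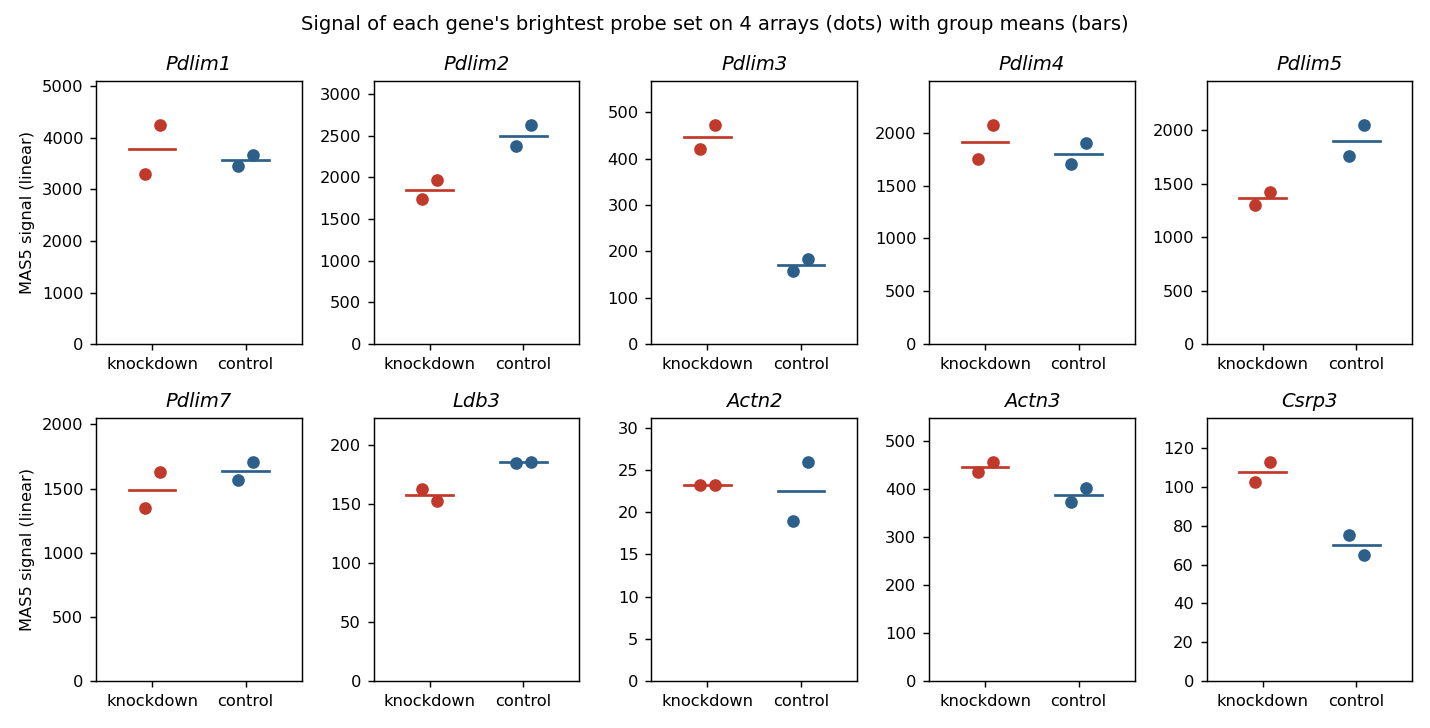
Linear MAS5 signal (y axis, from 0, a scale of its own for each gene) of the brightest probe set of each of the 10 genes, with knockdown arrays left of control arrays, dots for arrays and bars for group means. Both knockdown arrays of Pdlim3 (421.5 and 472.5) lie above both control arrays (157.6 and 183.1), both knockdown arrays of Pdlim2 and Pdlim5 lie below both control arrays, and Actn2 stays between 19.0 and 26.0.

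Pdlim3 encodes ALP, the actinin-associated LIM protein of skeletal and heart muscle. Its only probe set, 1449178, read 421.5 and 472.5 in the knockdown, against 157.6 and 183.1 in the control. Both knockdown arrays were well above both control arrays. The group means were 447 ± 36.1 in the knockdown and 170.35 ± 18.0 in the control (SD, n = 2 each). The fitted log2 difference was 1.31 (SE 0.20, limma adjusted p = 0.00187), and all 4 arrays were above background. Leaving out any 1 array kept the call, with differences between 1.22 and 1.41. The call ended without the filter on dim probe sets (adjusted p = 0.0705) and without the variance trend (adjusted p = 0.119), a setting in which limma called 0 genes of any kind.

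The genes whose centred log2 profile over the 4 arrays lay nearest to that of Pdlim3, by Euclidean distance over 12866 genes, were Lgalsl, Wasf2 and Sema4b, at distances of 0.048, 0.065 and 0.147 log2 units. Wasf2, which encodes the WAVE2 protein of actin nucleation, read 3611.7 and 3929.3 in the knockdown, against 1468.9 and 1599.7 in the control. With 4 arrays this likeness is mostly the shared step between the groups.

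Sequences upstream of transcription starts are shown for the member that was called and for the 3 others with the largest fitted log2 differences among tested probe sets. RefSeq promoter windows of the GRCm38.p6 build, from 250 bases before to 50 after an annotated start, matched 8 of the 10 genes with 11 windows. Pdlim2 and Actn3 were not matched. Capitals mark matches to the E-box, CANNTG, which basic helix-loop-helix factors such as MyoD and myogenin bind, and to the CArG box, which serum response factor binds. Both strands were searched, and CAGCTG is also an E-box. The windows are Pdlim3 at chr8:45885237-45885536 on the plus strand, and on the minus strand Ldb3 at chr14:34588632-34588931, Csrp3 at chr7:48848002-48848301 and Pdlim5 at chr3:142395647-142395946.
Pdlim3: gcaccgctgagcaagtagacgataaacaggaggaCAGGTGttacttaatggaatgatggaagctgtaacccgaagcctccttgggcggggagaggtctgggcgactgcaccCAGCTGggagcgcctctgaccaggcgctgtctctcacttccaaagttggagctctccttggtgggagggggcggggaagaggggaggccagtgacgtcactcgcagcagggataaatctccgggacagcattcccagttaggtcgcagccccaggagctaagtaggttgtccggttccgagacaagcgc
Ldb3: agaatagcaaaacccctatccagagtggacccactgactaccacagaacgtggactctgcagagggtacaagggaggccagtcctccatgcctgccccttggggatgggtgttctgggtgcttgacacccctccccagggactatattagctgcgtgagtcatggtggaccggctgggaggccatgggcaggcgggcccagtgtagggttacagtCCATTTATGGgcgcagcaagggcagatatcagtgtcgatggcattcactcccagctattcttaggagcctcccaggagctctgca
Csrp3: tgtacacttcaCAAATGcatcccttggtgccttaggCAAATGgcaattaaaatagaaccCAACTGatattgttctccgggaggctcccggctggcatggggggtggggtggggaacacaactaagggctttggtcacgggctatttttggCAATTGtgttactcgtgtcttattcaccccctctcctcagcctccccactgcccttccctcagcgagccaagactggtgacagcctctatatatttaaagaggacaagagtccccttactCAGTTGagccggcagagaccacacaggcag
Pdlim5: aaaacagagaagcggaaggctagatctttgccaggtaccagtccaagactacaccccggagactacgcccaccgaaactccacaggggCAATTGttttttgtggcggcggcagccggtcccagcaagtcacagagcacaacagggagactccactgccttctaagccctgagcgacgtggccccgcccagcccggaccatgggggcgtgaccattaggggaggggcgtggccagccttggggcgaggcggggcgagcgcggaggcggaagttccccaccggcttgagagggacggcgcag
The Pdlim3 window held 2 E-boxes, 1 of them CAGCTG, which 16.3% of all 32851 windows of 300 bases contain. The Ldb3 window held a CArG box that begins 35 bases before the start, and 1.63% of all windows contain one. The other Ldb3 window overlaps this one and holds the same CArG box. The Csrp3 window shown held 5 E-boxes and the Pdlim5 window shown 1, where 72.3% of all windows contain at least 1. A second window of Csrp3 held 4 E-boxes and a second window of Pdlim5 held 0. Over the 11 windows of these genes, 5 held an E-box and 0 a MEF2 motif, which 3.19% of all windows contain. These matches describe the letters in the windows only.

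Ldb3 encodes ZASP, also called Cypher, a PDZ-LIM protein of the Z-disc in heart and skeletal muscle, and its 3 probe sets did not move together. Probe set 1416752 read 159.1 and 191.2 in the knockdown, against 74.7 and 78.9 in the control. Probe set 1433783 read 212.2 and 206.8 in the knockdown, against 109.2 and 118.3 in the control. Probe set 1451999, the brightest, read 163.0 and 152.6 in the knockdown, against 185.0 and 186.1 in the control. The groups did not overlap in any of the 3, the first pair being higher in the knockdown and the brightest lower.

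The fitted log2 differences were 1.04 (SE 0.30, limma adjusted p = 0.105 over all probe sets) for 1416752 and 0.80 (SE 0.25, adjusted p = 0.139) for 1433783. The brightest, which stood for the gene, gave -0.21 (SE 0.25, adjusted p = 0.767 over genes). Within an array, the log2 signal of 1433783 minus that of 1451999 was 0.35 and 0.40 in the knockdown and -0.68 and -0.59 in the control. The same quantity for 1416752 was -0.03 and 0.30 in the knockdown and -1.15 and -1.09 in the control. For both pairs of Ldb3 probe sets the knockdown arrays lay above the control arrays in this quantity, which was not tested. That follows from the opposite directions given above and is not a further observation. Knockdown arrays also lay above control arrays for Pdlim5 1429783 and Pdlim7 1417959, each minus the brightest probe set of its gene, and did not for Pdlim5 1422862. Which transcripts of Ldb3 each probe set detects was not analysed here. Without control replicate 1 or control replicate 2 the brightest Ldb3 probe set was 1433783, and the value for the gene became 0.75 (adjusted p = 0.364) and 0.85 (adjusted p = 0.212).

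**Figure D2:**
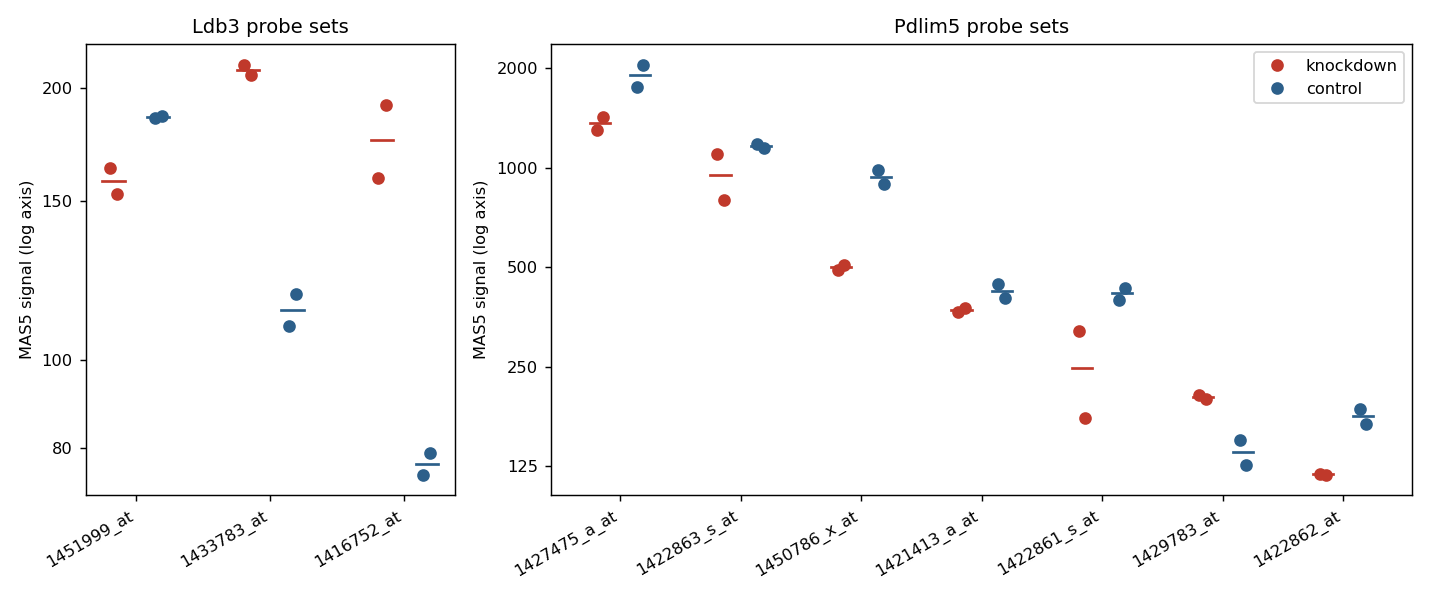
MAS5 signal (log axis) of the 3 Ldb3 probe sets (left) and the 7 Pdlim5 probe sets (right), with dots for single arrays, bars for group means and knockdown left of control in each pair. Knockdown arrays lie above control arrays in Ldb3 1433783 and 1416752 and in Pdlim5 1429783, and below them in Ldb3 1451999 and the other 6 Pdlim5 probe sets.

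Pdlim5 encodes ENH, an Enigma protein that binds protein kinase C and alpha-actinin, and it has 7 probe sets, 6 lower and 1 higher in the knockdown with no overlap between the groups. These 7 share their target gene and are not separate evidence. The names of 1427475 and 1421413 end in _a_at and those of 1422863 and 1422861 in _s_at. Those of 1422862 and of the higher one, 1429783, end in _at alone. Probe set 1450786 fell, at 491.2 and 508.7 in the knockdown, against 984.0 and 894.2 in the control. That is 53.2% of the control signal (log2 -0.89, SE 0.15, limma adjusted p = 0.0123 over 22893 probe sets). Its name ends in _x_at, as do those of Pdlim1 1437170 and Pdlim7 1443785, which marks a probe set with probes that can match other transcripts. The call ended without control replicate 1 (log2 -0.82, adjusted p = 0.0557), without the filter (adjusted p = 0.0615) and without the variance trend (adjusted p = 0.227).

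The brightest Pdlim5 probe set, 1427475, read 1301.9 and 1423.8 in the knockdown, against 1756.2 and 2051.0 in the control. Both knockdown arrays were below both control arrays, with a log2 difference of -0.47 (SE 0.14, limma adjusted p = 0.0810), which did not pass. It did pass with arrays centred on their medians (adjusted p = 0.0452), with quantile normalization (0.0273), with the upper 40% filter (0.0349) and without knockdown replicate 2 (0.0265).

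Probe set 1429783 of Pdlim5 ran the other way, at 204.7 and 199.3 in the knockdown, against 149.8 and 125.5 in the control (log2 0.51, SE 0.25, limma adjusted p = 0.352). Probe set 1422861 read 319.9 and 174.6 in the knockdown, against 398.7 and 433.2 in the control. Its knockdown arrays were far apart, and its log2 difference was -0.77 (limma adjusted p = 0.151), -1.18 without knockdown replicate 1 (adjusted p = 1.73e-04) and -0.36 without knockdown replicate 2. Probe set 1422863, at 1096.8 and 799.6 in the knockdown and 1179.3 and 1143.6 in the control, passed without knockdown replicate 1 only (adjusted p = 0.0475). Probe set 1422862 read 118.4 and 117.5 in the knockdown, against 186.4 and 167.7 in the control, and 1421413 read 364.6 and 376.1 in the knockdown, against 443.8 and 401.7. Neither passed under any setting tried.

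The widest gap between probe sets of 1 gene, the highest minus the lowest log2 difference, was 1.40 in Pdlim5 and 1.25 in Ldb3. Among the 2527 genes with 3 or more tested probe sets the median gap was 0.485, and 96.3% of those genes had a narrower gap than Pdlim5 and 94.2% a narrower one than Ldb3. A gene with 7 probe sets has more room for a wide gap than one with 3. The 3 Ldb3 probe sets were dim, with signals between 74.7 and 212.2, and the genes compared were not matched for signal. Differences of both signs within a gene, as in Pdlim5, Ldb3 and Pdlim7, were found in 64.3% of these genes. The gap of Pdlim7 was 0.45, wider than in 46.0% of them.

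**Figure D3:**
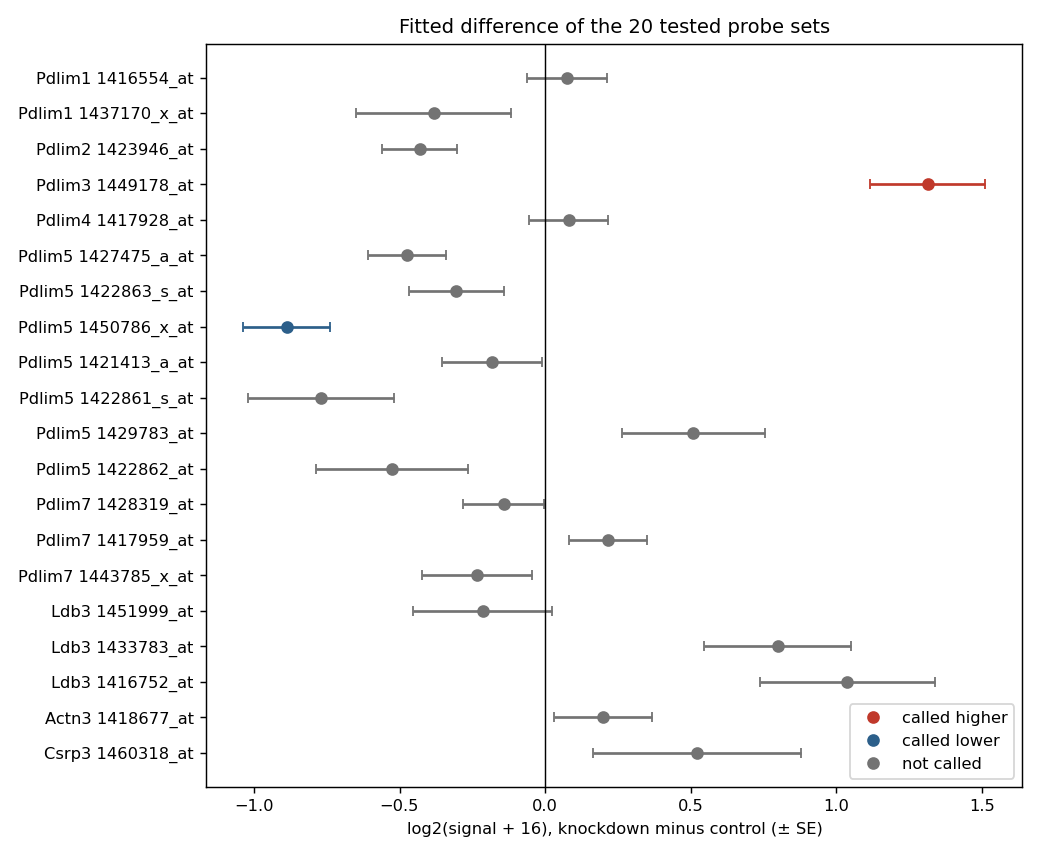
Fitted difference in log2(signal + 16), knockdown minus control, with its SE (x axis) for the 20 tested probe sets (y axis), coloured by the call over all 22893 probe sets. Pdlim3 1449178 at 1.31 is the only probe set called higher and Pdlim5 1450786 at -0.89 the only one called lower, and Ldb3 has probe sets at 1.04, 0.80 and -0.21.

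Pdlim2, whose protein is known in mouse immune cells as a ubiquitin ligase for STAT4, had 1 probe set. It read 1739.1 and 1963.2 in the knockdown, against 2372.5 and 2627.9 in the control. Both knockdown arrays were below both control arrays, by a log2 difference of -0.43 (SE 0.13, limma adjusted p = 0.0988), short of the threshold. Pdlim2 passed with arrays centred on their medians (adjusted p = 0.0433), with quantile normalization (0.0212) and without knockdown replicate 2 (0.0277).

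Pdlim1, which encodes the actin-associated protein CLP36, read 3299.9 and 4246.2 in the knockdown, against 3455.6 and 3660.8 in the control in its brightest probe set, 1416554. Its groups overlapped, and the knockdown arrays lay further apart than the control arrays (log2 0.07, SE 0.13, limma adjusted p = 0.864). A dimmer Pdlim1 probe set, 1437170, read 152.4 and 111.7 in the knockdown, against 168.9 and 181.8 in the control (log2 -0.38, adjusted p = 0.544). The third, 1437169, was above background on 1 array only and was not tested. Pdlim4, which encodes the LIM protein RIL, read 1747.6 and 2073.9 in the knockdown, against 1700.9 and 1902.4 in the control, with overlapping groups (log2 0.08, adjusted p = 0.852). For both genes the sign of the difference turned without knockdown replicate 2, to -0.11 for Pdlim1 and -0.04 for Pdlim4.

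Pdlim7, which encodes Enigma, read 1348.0 and 1629.2 in the knockdown, against 1568.6 and 1710.3 in the control in its brightest probe set, 1428319 (log2 -0.14, SE 0.14, limma adjusted p = 0.711). Probe set 1417959 read 1200.6 and 1310.0 in the knockdown, against 1101.5 and 1054.4 in the control (log2 0.22, adjusted p = 0.483), and 1443785 read 545.1 and 790.1 in the knockdown, against 701.9 and 855.8 (log2 -0.23, adjusted p = 0.611). The groups overlapped in 1428319 and 1443785 and did not in 1417959, where the knockdown was higher.

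Among the alpha-actinins, Actn2 read 23.2 and 23.2 in the knockdown, against 19.0 and 26.0 in the control. All 4 arrays were in the background range, so no fold is given. Actn3, the fast-fibre alpha-actinin, read 436.4 and 457.2 in the knockdown, against 373.6 and 401.4 in the control. Its knockdown arrays were above its control arrays by a log2 difference of 0.20 (SE 0.17, limma adjusted p = 0.662), which did not pass under any setting tried.

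Csrp3 read 102.5 and 113.2 in the knockdown, against 75.5 and 65.2 in the control, above background on all 4 arrays. The means were 108 ± 7.57 in the knockdown and 70.35 ± 7.28 in the control (SD, n = 2 each), with no overlap between the groups. The log2 difference was 0.52 (SE 0.38, limma adjusted p = 0.585), and Csrp3 did not pass under any setting tried. Its SE is the widest of the 9 tested genes.

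Other genes of the Z-disc were read from a list of 32 symbols, of which 30 were on the array and 23 were tested. In it 3 genes rose and 1 fell, where 1.44% of all tested genes were called higher and 1.61% lower. At an unadjusted p under 0.05, limma gave 8 of the 23 higher and 2 lower, against 7.89% and 7.14% of all tested genes. The difference was above 0 in 16 of the 23, against 52.2% of all tested genes, and the median log2 difference was 0.23. Synpo2l, which encodes a Z-disc protein of the synaptopodin family, read 634.0 and 737.8 in the knockdown, against 221.5 and 229.6 in the control (log2 1.54, SE 0.18, limma adjusted p = 1.34e-04). With probe sets whose names end in _s_at, _x_at or _a_at left out, Synpo2l was read from another probe set, which gave -1.14 (adjusted p = 0.263), and with the mean of its probe sets it gave 0.75 (adjusted p = 0.151). Ttn, the giant sarcomere protein titin, read 452.7 and 445.8 in the knockdown, against 146.5 and 302.5 in the control (log2 1.03, SE 0.26, adjusted p = 0.0399). The Ttn call was lost in 9 of 15 alternative settings, among them centring on array medians (adjusted p = 0.0691) and quantile normalization (0.0780), and the Ttn difference was 0.55 without control replicate 1 (adjusted p = 0.365) and 0.18 without _s_at, _x_at and _a_at probe sets (adjusted p = 0.850). The genes of the actin capping protein subunits that cap filaments at the Z-disc went both ways. Capza2 rose by 0.63 log2 units (SE 0.12, adjusted p = 0.0103) and Capza1 fell by 0.65 (SE 0.12, adjusted p = 0.00719). Of 15 alternative settings, the Capza1 call was lost in 4, among them that without control replicate 2, and the Capza2 call in 2. Without the filter on dim probe sets neither Capza2 (adjusted p = 0.0875) nor Capza1 (0.0696) was called.

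A list of 38 other alpha-actinin and LIM domain genes, 31 of them tested, had 0 genes called in either direction by limma. At an unadjusted p under 0.05, 1 was higher and 6 lower, where 7.89% of all tested genes were higher and 7.14% lower. The median log2 difference of the list was -0.03. The non-muscle alpha-actinin genes Actn1 and Actn4 differed by 0.01 (adjusted p = 0.988) and 0.26 (adjusted p = 0.284). The smallest adjusted p in the list were those of Lasp1, an actin-binding LIM protein gene (log2 -0.45, adjusted p = 0.0576), and of the LIM kinase gene Limk1 (log2 -0.70, adjusted p = 0.0649), which were picked out after their values were seen.

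**Figure D4:**
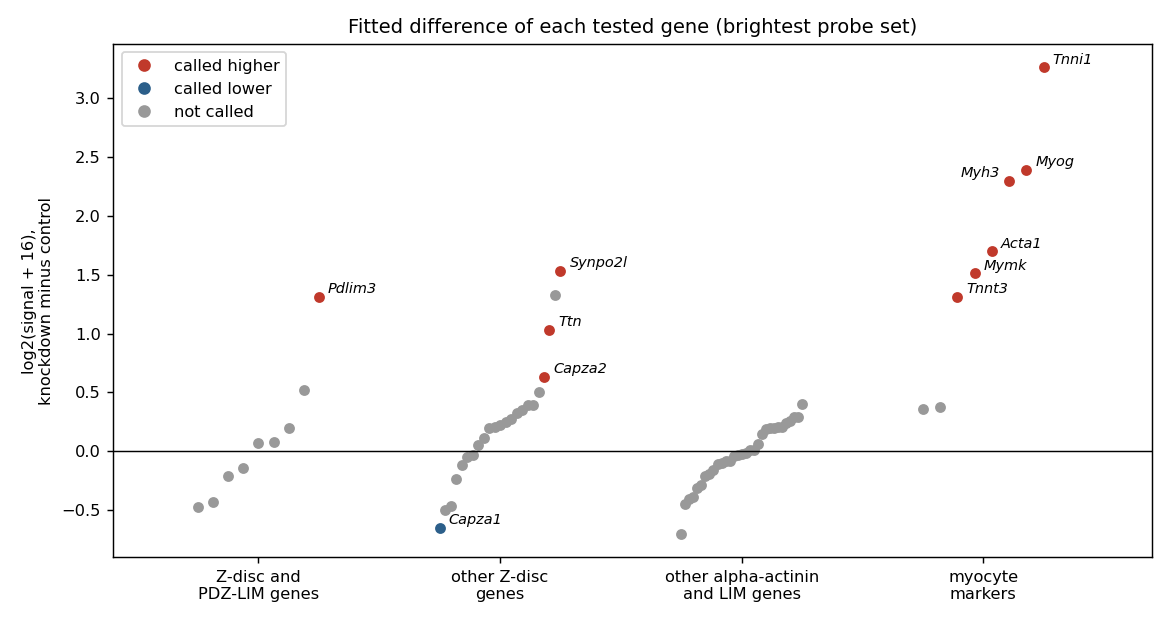
Fitted difference in log2(signal + 16), knockdown minus control (y axis), of each tested gene in 4 gene lists (x axis), coloured by the call over all 12866 genes, with called genes named. Pdlim3 at 1.31 stands above the other 8 genes of its group, and 6 of the 8 tested myocyte markers were called higher, against 1.44% of all tested genes.

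Markers of differentiating muscle cells moved in the same direction as Pdlim3. Of 10 myocyte markers on the array 8 were tested, 6 rose and 0 fell. Of all tested genes 1.44% were called higher and 1.61% lower. The summed signal of the 10 markers, mostly Myog and Acta1, was 5041 and 5224 in the knockdown, against 1479 and 1204 in the control. The 6 that rose were Myog, Mymk, Myh3, Acta1, Tnnt3 and Tnni1. Ckm (log2 0.38) and Mef2c (log2 0.36) were tested and not called, and Mymx was in the background range on all arrays. The call of Tnnt3 ended without knockdown replicate 1 (adjusted p = 0.0835), and without the filter the calls of Tnnt3 (0.169) and Mymk (0.0926) ended. The brightest of them, Myog, the myogenin gene, read 1656.7 and 1832.6 in the knockdown, against 341.9 and 296.2 in the control. The part of these markers in the Pdlim3 and Ldb3 values was not tested.

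The summed signal of the 8 myoblast markers was 12126 and 13112 in the knockdown, against 12465 and 13608 in the control. Of these, 1 rose (Msc, log2 1.54, not called without the filter, adjusted p = 0.0673) and 0 fell. Of all tested genes 1.44% were called higher and 1.61% lower. At an unadjusted p under 0.05 limma gave 1 of the 8 markers higher and 2 lower, against 7.89% and 7.14% of all tested genes. The brightest of the 8 was Des (log2 0.20). The difference was below 0 in 5 of the 8 and above 0 in 3, where 52.2% of all tested genes were above 0. Pax7, picked out after its values were seen, read 129.7 and 236.0 in the knockdown, against 406.7 and 318.4 in the control. Its log2 difference was -0.97 (limma adjusted p = 0.0539), which did not pass. Among 8 fibroblast markers, 6 of them tested, 0 rose and Pdgfrb fell (log2 -0.58, adjusted p = 0.0499), a call that was lost in 8 of 15 alternative settings, among them those without either control replicate (adjusted p = 0.0549 and 0.340) and without knockdown replicate 2 (0.0711). Their summed signal, mostly Col3a1, was 16324 and 16954 in the knockdown, against 14996 and 14832 in the control. Another Col3a1 probe set, read where _s_at, _x_at and _a_at probe sets were left out, was called lower (log2 -0.77, adjusted p = 0.0162). Limma called 0 of the 14 tested adipocyte, osteoblast and chondrocyte, macrophage and endothelial markers, with 0 higher and 2 lower at an unadjusted p under 0.05. In these lists Adipoq, Ptprc, Itgam and Pecam1 were in the background range on all arrays. Others, among them Lpl, Pparg, Sox9, Csf1r, Cd14, Adgre1 and Kdr, lay above background on all 4 arrays. The brightest markers of those lists were Cebpa, Sox9, Cd14 and Kdr, with log2 differences between -0.53 and -0.36.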

How the data were processed

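The authors deposited linear intensity values, 1 per probe set and array. The submitters' processing notes name MAS5 and GCOS without versions. The values were used as deposited, and scaling between arrays is not described in the labels or file headers. Of 45101 probe sets, 34945 had 1 gene in the array annotation, and 34741 of these matched RefSeq by gene identifier. Signals were transformed as log2(signal + 16), a scale that makes changes of dim genes look smaller. Each gene was read from its brightest probe set, the upper 60% of probe sets (signal 57.3 or more) were kept, and 12866 genes, or 22893 probe sets, were tested with limma 3.58.1 in R 4.3.3 (lmFit, eBayes with a variance trend, 2 residual and 13.8 prior degrees of freedom, Benjamini-Hochberg). The steps were tested on simulated data. A two-sided exact permutation test of 2 against 2 arrays cannot give a p under 0.333. With 2 arrays per group, the number of arrays limits the precision.

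The 10 genes and the lists were chosen with earlier results of these data known. Text names all 10 genes, Sfmbt1, the called genes of the lists, the brightest and the called markers, and the 3 nearest profiles of Pdlim3; others were chosen after their values were seen. In all, 15 alternative settings were tried. Fits with 1 array left out assume that the lone array varies like the other group.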

Additional observations from a re-analysis of the deposited data

How the results depend on the processing

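Over all genes 185 were called higher and 207 lower. Without the variance trend limma called 0 and 0 (719 and 782 at an unadjusted p under 0.05), without the filter 23 and 32, with the upper 40% of signals 284 and 321, and with the mean of a gene's probe sets, a setting chosen after seeing the data, 97 and 120. With arrays centred on their medians 329 were higher and 216 lower, a share of higher calls of 60.4%, against 47.2% without centring. Leaving out single arrays gave 140 to 405 higher and 123 to 468 lower, with 405 without knockdown replicate 1, 468 without knockdown replicate 2 and 123 without control replicate 2. Of the 10 genes, Pdlim3 was called higher in every setting but those without the variance trend and without the filter, where 0 were called. The count called lower was 0, but 2 (Pdlim2 and Pdlim5) with centring, with quantile normalization and without knockdown replicate 2, the range over left-out arrays being 0 to 2, and 1 (Pdlim5) with the upper 40%. With the replicate number as a block 276 genes were higher and 270 lower, and 2 of the 10 genes were lower, Pdlim2 (adjusted p = 0.0277) and Pdlim5 (0.0279). Those arrays share only a number, and the deviations of arrays with the same number correlated at r = 0.011 across genes.

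Signs turned in Pdlim5 without _s, _x and _a probe sets (0.51, read from 1429783). Leaving out single arrays gave -0.258 to 0.85 for Ldb3 (0.75 and 0.85 without control replicate 1 or 2), -0.108 to 0.255 for Pdlim1, -0.041 to 0.204 for Pdlim4 and -0.496 to 0.027 for Pdlim7 probe set 1443785. The mean of probe sets gave 0.54 for Ldb3, -0.15 for Pdlim1 and -0.28 for Col3a1. Synpo2l gave -1.14 (not called) and Col3a1 -0.77 (called lower) without _s, _x and _a probe sets. By construction the settings on probe sets, and Ldb3 without a control array, read the gene from other probe sets. Of 263 values for the 10 genes and their probe sets under these settings, 239 kept direction and call, 5 lost a call, 11 gained one and 8 turned. Dim probe sets such as those of Csrp3 and Actn2 are limited by signal near background.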

Other observations

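Among the other Z-disc genes left out by the filter on dim probe sets, Smpx and Neb were above background on both knockdown arrays and in the background range on both control arrays. Smpx, which encodes a small muscle protein, read 153.8 and 155.7 in the knockdown, against 2.5 and 33.6 in the control, at least 2.54-fold higher with background in place of the control signals. Neb, the nebulin gene, read 70.2 and 67.8 in the knockdown, against 5.8 and 12.2 in the control. Background stood at 69.3 on knockdown array 1 and 42.9 on knockdown array 2. The Neb signal on knockdown array 1 was thus barely above background, and no fold is given. Neither was tested, and both were picked out after their values were seen.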
